A study of Homo sapiens with 9 samples.

Results

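The replacement histone variants are the histones that are made outside the main S-phase supply and are swapped into chromatin one nucleosome at a time. The 9 genes described here were chosen by symbol from the 61832 rows of the deposited count table: H3-3A and H3-3B, which both encode H3.3, CENPA, which encodes the centromeric H3, H2AZ1 and H2AZ2, which encode H2A.Z.1 and H2A.Z.2, H2AX, MACROH2A1, H2AJ and the linker histone gene H1-10. All 9 were found and all 9 passed the filter on low counts, which left 20402 genes and repeat subfamilies. The 9 libraries came from HCT116, a human line established from a colorectal carcinoma. The labels form 3 groups of 3: cells with a control short hairpin given the solvent DMSO (shCTRL DMSO), cells with a hairpin against SLC6A3, the dopamine transporter gene, given DMSO (shSLC6A3 DMSO), and control-hairpin cells given a treatment labelled VXN and not spelled out (shCTRL VXN). The genotype label of every library is WT. No dose, time, vector or clone is named in those labels, and none says that replicates were separate cultures. Every p-value below thus sets a difference against the spread between libraries, which may be technical.

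Most histones are encoded by clustered genes whose mRNAs appear in S phase and end in a stem-loop rather than a poly(A) tail. Replacement variants are mostly encoded by single genes outside the clusters, and their mRNAs mostly carry poly(A) tails and are made in other phases as well. H3.3 is deposited by HIRA at active genes and by ATRX and DAXX at heterochromatin, CENP-A is deposited by HJURP and marks the centromere, H2A.Z is exchanged by the SRCAP and EP400 complexes at promoters, and H2AX is phosphorylated beside DNA breaks. The library kit named by the labels selects poly(A) RNA and does not mark strand, so any mRNA of a member without a poly(A) tail may be missed.

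The labels and the authors' own tables place the libraries in different groups. The authors deposited a table named for shCTRL V against shCTRL D and another for shDAT D against shCTRL D. DESeq2 rerun on trios of libraries called here V, DAT and D gave all 38907 deposited p-values of each table within 1e-06, while the labelled groups gave 0 and 547 of them. V holds replicate 3 of shCTRL DMSO, replicate 1 of shSLC6A3 DMSO and replicate 3 of shCTRL VXN. DAT holds shCTRL DMSO replicates 1 and 2 and shCTRL VXN replicate 1. D holds shSLC6A3 DMSO replicates 2 and 3 and shCTRL VXN replicate 2. Trio names below are only the names of those columns, and which treatment or hairpin each trio carried cannot be told apart from the sources used here. Each trio holds a pair of libraries that differed less from each other than from the remaining one, as given under processing. The libraries of a trio may therefore not be separate units, and p-values between trios may overstate the evidence.

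Depth was 30251364 to 60215785 counts per library. SLC6A3 had 0 to 6 counts in each library, too few to check the hairpin labels. MKI67, a marker of dividing cells, was at 62.2 to 74.4 CPM in V and at 519 to 611 CPM in the other 6 libraries, where CPM is a gene's count as a share of the library after scaling by the TMM method. Of 8 colon epithelium markers, EPCAM averaged 354 CPM, KRT8 1870 CPM and CDX2 18.6 CPM, while VIL1 and CDX1 were at or near 0. Mitochondrial genes took 5.26% to 6.96% of counts. In D, shCTRL VXN replicate 2 stood apart from the shSLC6A3 DMSO pair in several of the 9 genes and lay with DAT, so results that use D are also given without it.

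The promoter windows of 5 members are shown because these genes span the range of the data: CENPA, H2AX and H2AZ1 differed most between libraries, H1-10 was in between, and H3-3B differed least. Each window runs from 250 bases before to 50 bases after a RefSeq start on GRCh38.p14, 5′ to 3′ on the gene's strand. Capitals mark 4 motifs, each searched on both strands, so that some appear as their reverse complement, and none of the marked matches overlap. The CCAAT box was searched as its letters CCAAT, and the cell-cycle genes homology region, or CHR, as TTTGAA. The E2F site was searched in 4 spellings, which were TTTCCCGC, besides it TTTCGCGC, further the letters TTTGCCGC, and last the spelling TTTGGCGC. The TATA box was searched as TATAAA. The windows are CENPA at chr2:26785806-26786105 (+), H2AX at chr11:119095416-119095715 (-), H2AZ1 at chr4:99950226-99950525 (-), H1-10 at chr3:129316237-129316536 (-) and H3-3B at chr17:75779730-75780029 (-).
CENPA: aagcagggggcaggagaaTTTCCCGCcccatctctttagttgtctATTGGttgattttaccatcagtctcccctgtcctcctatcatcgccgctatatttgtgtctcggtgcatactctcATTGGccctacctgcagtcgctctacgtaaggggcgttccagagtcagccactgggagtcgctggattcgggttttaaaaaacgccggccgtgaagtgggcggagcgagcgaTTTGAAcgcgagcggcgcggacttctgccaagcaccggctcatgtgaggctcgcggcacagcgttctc
H2AX: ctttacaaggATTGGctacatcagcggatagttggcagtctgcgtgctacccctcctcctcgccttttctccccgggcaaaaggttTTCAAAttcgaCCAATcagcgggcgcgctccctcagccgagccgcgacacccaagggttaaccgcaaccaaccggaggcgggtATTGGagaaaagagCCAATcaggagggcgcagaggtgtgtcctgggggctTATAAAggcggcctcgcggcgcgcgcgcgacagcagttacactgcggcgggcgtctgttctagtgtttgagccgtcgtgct
H2AZ1: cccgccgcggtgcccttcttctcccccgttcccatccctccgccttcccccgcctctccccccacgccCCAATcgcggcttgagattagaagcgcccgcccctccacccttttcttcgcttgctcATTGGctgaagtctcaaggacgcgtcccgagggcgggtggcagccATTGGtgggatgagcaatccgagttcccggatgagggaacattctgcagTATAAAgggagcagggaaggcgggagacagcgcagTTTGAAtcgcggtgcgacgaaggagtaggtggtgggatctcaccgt
H1-10: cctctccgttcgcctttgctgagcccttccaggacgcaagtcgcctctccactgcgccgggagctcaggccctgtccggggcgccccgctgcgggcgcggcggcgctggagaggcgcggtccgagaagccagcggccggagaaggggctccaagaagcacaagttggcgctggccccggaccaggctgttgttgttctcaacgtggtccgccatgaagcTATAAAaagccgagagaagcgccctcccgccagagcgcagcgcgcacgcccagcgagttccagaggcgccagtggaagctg
H3-3B: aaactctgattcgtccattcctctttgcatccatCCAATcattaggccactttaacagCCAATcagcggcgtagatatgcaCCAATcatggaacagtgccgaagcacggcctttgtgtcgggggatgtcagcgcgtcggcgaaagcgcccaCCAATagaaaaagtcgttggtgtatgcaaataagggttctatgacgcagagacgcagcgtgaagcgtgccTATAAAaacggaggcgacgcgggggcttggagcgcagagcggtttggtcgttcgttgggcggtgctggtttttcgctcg

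The CHR letters were in the windows of 3 of the 9 members, against 15.16% of 35116 RefSeq promoter windows. With the start counted as 1 and no position 0, they began at -18 in CENPA, at 5 in H2AZ1 and, on the opposite strand, at -164 in H2AX. These are the 3 members with the lowest levels in V relative to the other libraries, and a link between the letters and the levels was not tested. E2F letters were in CENPA only, from position -232, against 3.31% of all windows. CCAAT boxes were in windows of 8 members, H1-10 being the exception, against 34.61% of all windows. TATA letters were in H3-3B, H2AZ1, H2AX and H1-10, against 11.53%. H3-3A has 4 RefSeq starts and MACROH2A1 has 2, and a member was counted where any of its windows held the letters. A match is a run of letters, and no binding was measured.

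Each gene has a place of its own on GRCh38 (GENCODE release 29). H3-3A (ENSG00000163041) lies at chr1:226061851-226072001 on the plus strand and H3-3B (ENSG00000132475) at chr17:75776434-75785893 on the minus strand. H2AZ1 (ENSG00000164032) lies at chr4:99948086-99950388 and H2AZ2 (ENSG00000105968) at chr7:44826791-44848083, both on the minus strand. CENPA (ENSG00000115163) lies at chr2:26764289-26801067 and H2AJ (ENSG00000246705) at chr12:14774383-14778002, both on the plus strand. MACROH2A1 (ENSG00000113648) lies at chr5:135333900-135399914, H2AX (ENSG00000188486) at chr11:119093854-119095467 and H1-10 (ENSG00000184897) at chr3:129314771-129316277, all on the minus strand. H2AX, H1-10 and H2AJ each have a principal transcript of 1 exon, a feature they share with the clustered histone genes. CENPA shares 138 exonic bases with SLC35F6 on the same strand, and SLC35F6 had 31296 counts in all against 8808 for CENPA. H3-3B shares 214 exonic bases with UNK on the opposite strand, which had 6.33% as many counts, and H1-10 shares 345 with H1FX-AS1, which had 4.42% as many. Reads in those stretches could have been counted for either gene.

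The 9 members differed in level by more than a factor of 10. Per length of the principal transcript, over all 9 libraries, H2AZ1 was highest at 389 ± 139 RPKM (CPM per kilobase, SD, n = 9), followed by H3-3B at 286 ± 12.1 and H2AZ2 at 199.8 ± 50.5. H3-3A followed at 158 ± 30.7, H2AX at 97.6 ± 38.6, H1-10 at 82.9 ± 27.9 and MACROH2A1 at 66.3 ± 11.5. CENPA, at 13.7 ± 7.26, and H2AJ, at 13.5 ± 2.75, were lowest. H2AJ encodes an H2A variant known to accumulate in senescent fibroblasts. H3-3B exceeded H2AZ2, and MACROH2A1 exceeded CENPA, with no overlap over the 9 libraries, while the ranges of all other neighbours in this order overlapped. Level per length depends on the transcript taken: over the union of all annotated exons MACROH2A1 averaged 10.4 RPKM, CENPA 10.0 RPKM and H2AZ2 31.7 RPKM. By that length the mean of CENPA exceeded that of MACROH2A1 in DAT (12.3 against 10.6 RPKM) and in D (14.6 against 12.2 RPKM). In V it did not (3.18 against 8.51 RPKM).

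The order was not the same in each trio. In V, H3-3B led, its lowest library at 269.9 RPKM against 229 in the highest library of H2AZ1. In DAT and D, H2AZ1 led in 3 of 3 libraries each, its lowest at 393 and 456 RPKM against 310 and 299 for the highest of H3-3B. At the other end, H2AJ exceeded CENPA in V, 10.6 against at most 4.50 RPKM. In D, CENPA exceeded H2AJ, 17.4 against at most 16.5 RPKM, and in DAT their ranges overlapped. The order of H2AJ and CENPA depends on the length taken. Over the union of annotated exons the V means were 2.21 RPKM for H2AJ and 3.18 RPKM for CENPA, the reverse order. In DAT those means were 3.10 and 12.3 RPKM.

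**Figure D1:**
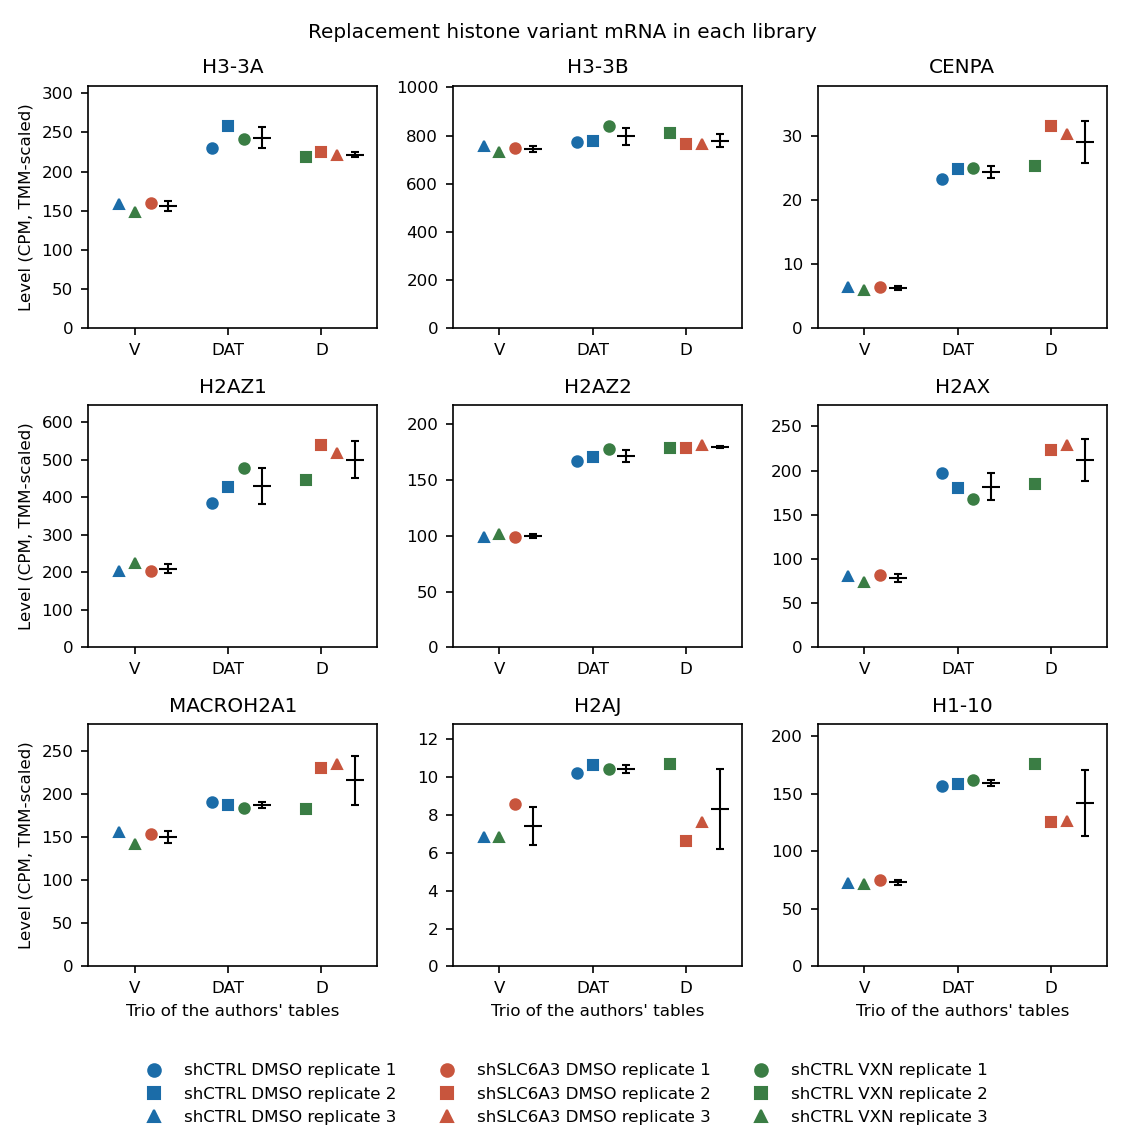
Level of each member in CPM (y axis, from 0) in the 9 libraries, placed by trio of the authors' tables (x axis). Colour gives the labelled group and shape the replicate, and the black mark is the trio mean with its SD (n = 3). The V libraries lie lowest without overlap for every member except H2AJ, by little for H3-3B (at most 755 against at least 763 CPM). For CENPA, H2AX, H2AZ1, H3-3B, MACROH2A1 and H2AJ, shCTRL VXN replicate 2 lies within or beside the DAT range. For H1-10 it lies above that range (176 against at most 162 CPM).

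The H3 variants differed from each other in how far they varied. CENPA was at 6.4, 6.0 and 6.5 CPM in V, at 23.4, 24.8 and 25.0 CPM in DAT and at 31.5, 30.4 and 25.3 CPM in D. H3-3A was at 158, 149 and 160 CPM in V, at 230, 258 and 242 CPM in DAT and at 225, 221 and 219 CPM in D. H3-3B was at 755, 730 and 746 CPM in V, at 775, 777 and 838 CPM in DAT and at 763, 765 and 809 CPM in D. V was lowest for each of these genes without overlap, but the highest library exceeded the lowest by 5.28 times for CENPA, 1.73 times for H3-3A and 1.15 times for H3-3B. In D, the last value of each series is shCTRL VXN replicate 2, which for CENPA lay close to DAT.

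Of the H2A.Z genes, H2AZ1 was at 203, 224 and 205 CPM in V, at 385, 428 and 479 CPM in DAT and at 539, 518 and 447 CPM in D. H2AZ2 was at 99.2, 101.9 and 98.9 CPM in V, at 166.5, 170.2 and 178 CPM in DAT and at 178.5, 181 and 179 CPM in D. Both were lowest in V without overlap. DAT and D overlapped for H2AZ1 and did not for H2AZ2, whose DAT libraries ended at 178 CPM just under the lowest of D. H2AX, the variant marked at DNA breaks, was at 80.3, 73.9 and 81.4 CPM in V, at 197.5, 180.5 and 168 CPM in DAT and at 223, 229 and 184.5 CPM in D.

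MACROH2A1 encodes a variant with a large C-terminal macro domain, known from the inactive X chromosome and silent genes, and its splice isoforms are not told apart in these gene counts. It was at 156, 143 and 154 CPM in V, at 191, 187 and 184 CPM in DAT and at 231, 235 and 183 CPM in D. Its V libraries were lowest, and the shSLC6A3 DMSO pair of D was highest. H1-10, a linker histone that binds DNA between nucleosomes, was at 72.2, 71.8 and 75.1 CPM in V, at 157, 158 and 162 CPM in DAT and at 125, 126 and 176 CPM in D. Here the same pair of D lay between V and DAT. H2AJ was at 6.8, 6.8 and 8.5 CPM in V, at 10.2, 10.6 and 10.4 CPM in DAT and at 6.6, 7.6 and 10.6 CPM in D, so that the pair of D overlapped V.

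Across the 9 libraries, 8 of the 9 members had all 3 V libraries below the other 6, H2AJ being the exception. The same held for 5310 of the 20402 features, or 26%. Mean levels in V, as a percentage of the mean of the other 6 libraries, ran from 23.6% for CENPA, 39.8% for H2AX, 45.2% for H2AZ1 and 48.4% for H1-10 through 57.0% for H2AZ2, 67.0% for H3-3A and 74.7% for MACROH2A1 to 79.2% for H2AJ and 94.4% for H3-3B. In bulk RNA, fewer cells that express a gene and less of its RNA per cell cannot be told apart.

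By the labels, the question was whether the SLC6A3 hairpin or VXN moved these genes, and 0 of 9 members passed an adjusted p of 0.05 in either comparison (edgeR quasi-likelihood test, Benjamini-Hochberg adjustment over all features). For shSLC6A3 DMSO against shCTRL DMSO, 0% of the 20402 features passed. The members ran from 0.32 (SE 0.763) for CENPA to -0.28 (SE 0.234) for H2AJ on the log2 scale, with edgeR adjusted p of 0.999 for each. For shCTRL VXN against shCTRL DMSO, 0.0098% of features passed, and the members ran from 0.18 (SE 0.451) for H2AZ1 to -0.10 (SE 0.513) for H2AX, with edgeR adjusted p of 1 for each. No member had an unadjusted p below 0.05 in either comparison, and DESeq2 also called 0 members. Each labelled group holds 1 library of V. The standard errors show what the labels leave within a group: for CENPA, shCTRL DMSO averaged 18.2 ± 10.2 CPM (SD, n = 3), shSLC6A3 DMSO 22.8 ± 14.1 CPM and shCTRL VXN 18.8 ± 11.1 CPM. With the replicate number as a block in the 6 libraries of the VXN comparison, 205 features passed in place of 2, and still 0 of 9 members. Replicate 3 is the V library in both of those groups, so the block cannot tell replicate pairing from V membership.

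In the authors' deposited table of V against D, 7 of the 9 members were lower in V and 0 were higher, against 22.7% of all tested features lower and 21.4% higher. CENPA had the lowest log2 fold change in the authors' deposited table, -2.22 (SE 0.116, DESeq2 adjusted p = 3.09e-80). H2AX followed in the authors' deposited table at -1.45 (SE 0.106, DESeq2 adjusted p = 5.45e-42) and H2AZ1 at -1.26 (SE 0.107, DESeq2 adjusted p = 6.8e-32). H1-10, at -0.97 (SE 0.114), H2AZ2, at -0.86 (SE 0.054), MACROH2A1, at -0.53 (SE 0.103), and H3-3A, at -0.53 (SE 0.0643), were also lower in the authors' deposited table, with DESeq2 adjusted p of at most 5.73e-07. The members that did not pass in the authors' deposited table were H2AJ, at -0.17 (SE 0.161, DESeq2 adjusted p = 0.407), and H3-3B, at -0.09 (SE 0.0534, DESeq2 adjusted p = 0.16). The paired genes thus gave unlike values: for H3.3, H3-3A passed and H3-3B did not, and for H2A.Z the value of H2AZ1 was the lower. Fold changes in the authors' deposited tables are shrunken towards 0 and those of the reruns are not. In a rerun without shCTRL VXN replicate 2, the value of H2AJ was 0.02 (DESeq2 adjusted p = 0.922), against -0.18 in an unshrunken rerun with all libraries, and 7 members were again lower.

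V against DAT shares the V libraries with that comparison and replaces D. Here 8 of 9 members were lower in V in edgeR, against 28.7% of all features. CENPA was at -1.95 (SE 0.0939, edgeR adjusted p = 7.8e-08), H2AX at -1.21 (SE 0.092, edgeR adjusted p = 1.74e-06) and H1-10 at -1.12 (SE 0.114, edgeR adjusted p = 1.41e-05). H2AZ1 was at -1.03 (SE 0.0938), H2AZ2 at -0.78 (SE 0.0491), H3-3A at -0.64 (SE 0.0578) and MACROH2A1 at -0.32 (SE 0.0878), with edgeR adjusted p of at most 0.0105. H2AJ was at -0.49 (SE 0.165, edgeR adjusted p = 0.026). Its value stayed between -0.602 and -0.432 over the left-out libraries, but the call was lost without shCTRL DMSO replicate 1 (-0.51), replicate 2 (-0.48) or replicate 3 (-0.43), or without shCTRL VXN replicate 1 (-0.49) or replicate 3 (-0.43). H3-3B was at -0.10 (SE 0.051, edgeR adjusted p = 0.122). It passed when counts were scaled by their totals (-0.16, edgeR adjusted p = 0.0293) and without shCTRL VXN replicate 2 (-0.10, edgeR adjusted p = 0.0272).

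**Figure D2:**
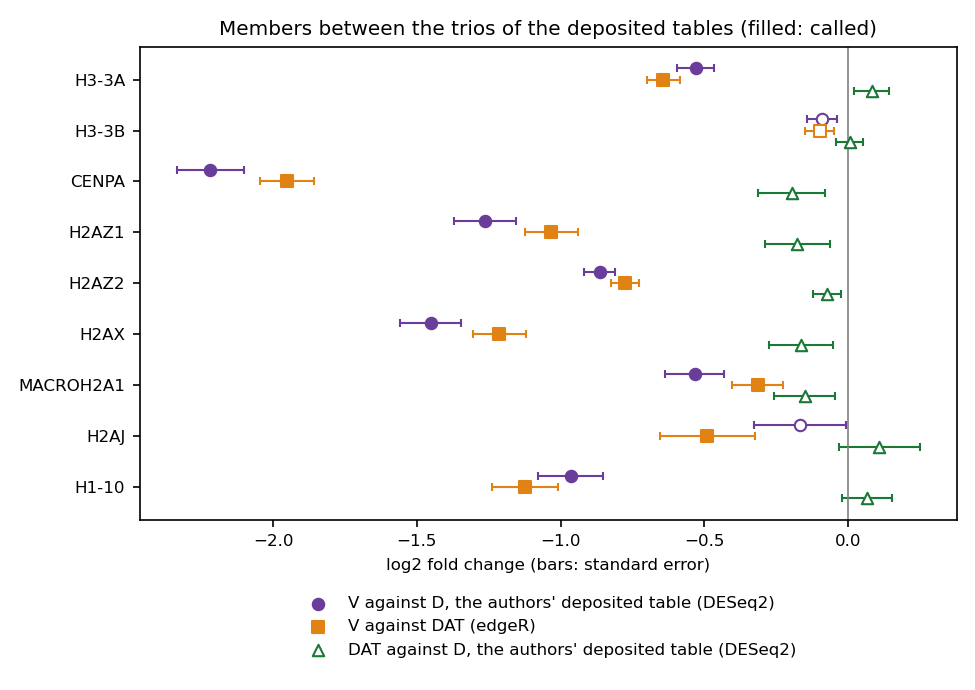
log2 fold change of each member (x axis) with its standard error, in V against D and DAT against D from the authors' deposited tables and in V against DAT from edgeR. The deposited values are shrunken towards 0 and the edgeR values are not. Filled symbols passed an adjusted p of 0.05. CENPA, H2AX, H2AZ1 and H1-10 lie near or below -1 in both comparisons of V, H3-3B lies near 0, and no member passed in DAT against D.

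Dividing-cell genes moved with these results. The summed level of 20 cycling-cell genes, among them MKI67, TOP2A, CDK1 and PCNA, was 755 to 944 CPM in V against 4546 to 4623 CPM in DAT and 4634 to 5327 CPM in D. In the authors' deposited table of V against D all 20 were lower, with a median log2 fold change of -2.52, beyond the value of any member. The sum of the clustered, replication-dependent histone genes went the other way: it was 159.8 to 163 CPM in V, 27.8 to 36.9 CPM in DAT and 23.7 to 28.0 CPM in D. Of 65 such genes, 10 had a mean of at least 1 CPM, so the sum rests on few genes. Their separate directions are not given here. The 9 replacement variants together were at 1506 to 1537 CPM in V and at 2136 to 2324 CPM in the other 6 libraries. Since the kit selects poly(A) RNA, the clustered genes' values cover only such of their mRNAs as were captured. Whether these levels bear on the members' differences was not tested.

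**Figure D3:**
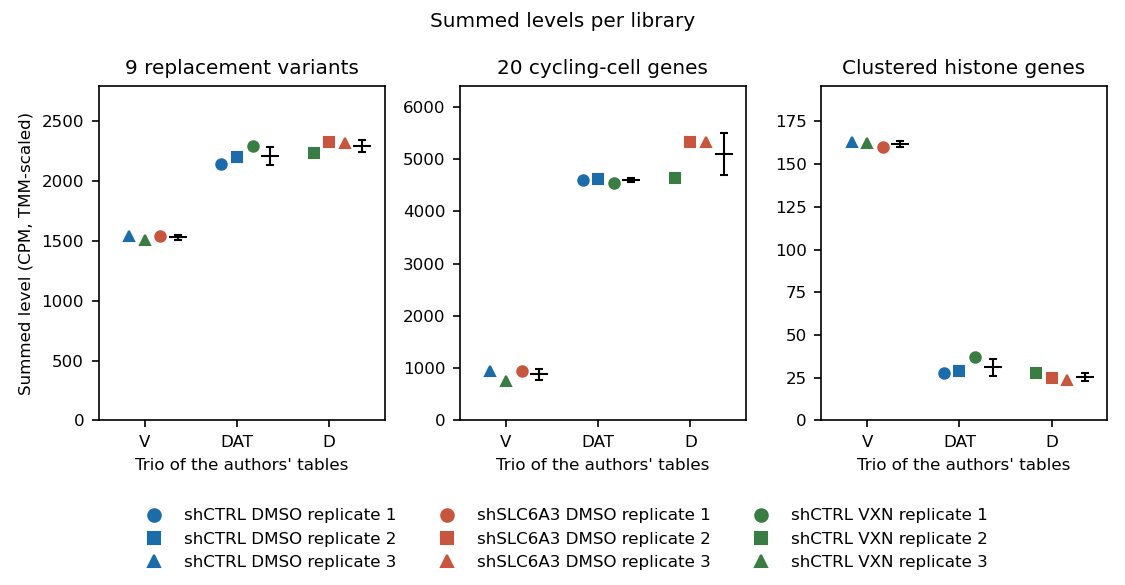
Summed CPM (y axes, from 0, each with its own range) of the 9 replacement variants, 20 cycling-cell genes and the clustered histone genes in each library, by trio of the authors' tables (x axis). Colour gives the labelled group, shape the replicate, and the black mark the trio mean with its SD (n = 3). V lies lowest in the first and middle panels and highest in the last.

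DAT against D showed far smaller differences. None of the members, 0 of 9, passed in the authors' deposited table, against 6.62% of features, and H2AJ was given no adjusted p there. The lowest values in the authors' deposited table were CENPA at -0.20 (SE 0.117, DESeq2 adjusted p = 0.0783), H2AZ1 at -0.18 (SE 0.113, DESeq2 adjusted p = 0.107), H2AX at -0.16 (SE 0.11, DESeq2 adjusted p = 0.102) and MACROH2A1 at -0.15 (SE 0.106, DESeq2 adjusted p = 0.115). These 4 had unadjusted p below 0.05, and edgeR gave 5 such members and called 0. The other 5 lay between -0.07 for H2AZ2 and 0.11 for H2AJ in the authors' deposited table.

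Leaving out shCTRL VXN replicate 2 made this comparison one of DAT against the shSLC6A3 DMSO pair, and 6 members then passed. That library was singled out because it lay with DAT in several of these same genes. Larger differences and smaller standard errors were thus partly built in, and the p-values without it are descriptive only. The all-library values set beside the left-out ones come from a DESeq2 rerun that is likewise unshrunken. Lower in DAT were CENPA at -0.38 (SE 0.0788, DESeq2 adjusted p = 9.76e-06), H2AX at -0.35 (SE 0.0666, DESeq2 adjusted p = 1.42e-06), MACROH2A1 at -0.35 (SE 0.0494, DESeq2 adjusted p = 2.97e-11) and H2AZ1 at -0.34 (SE 0.0748, DESeq2 adjusted p = 4.9e-05). Higher in DAT were H2AJ at 0.51 (SE 0.128, DESeq2 adjusted p = 0.000351) and H1-10 at 0.30 (SE 0.0455, DESeq2 adjusted p = 8.02e-10). H2AZ2 (-0.11), H3-3A (0.08) and H3-3B (0.02) did not pass. With all libraries, the unshrunken rerun gave -0.28 (SE 0.108) for CENPA, -0.25 (SE 0.105) for H2AX, -0.23 (SE 0.103) for MACROH2A1 and -0.25 (SE 0.106) for H2AZ1. It gave 0.31 (SE 0.166) for H2AJ and 0.14 (SE 0.113) for H1-10, and 0 members passed (DESeq2 adjusted p of at least 0.0905). Each of the 6 values was thus farther from 0, and each standard error smaller, without that library. The 4 lower members compare with 21.1% of all features and the 2 higher ones with 13.8%. edgeR without that library also called 4 lower and 2 higher, where 21.5% of its features were lower and 21.5% higher.

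**Figure D4:**
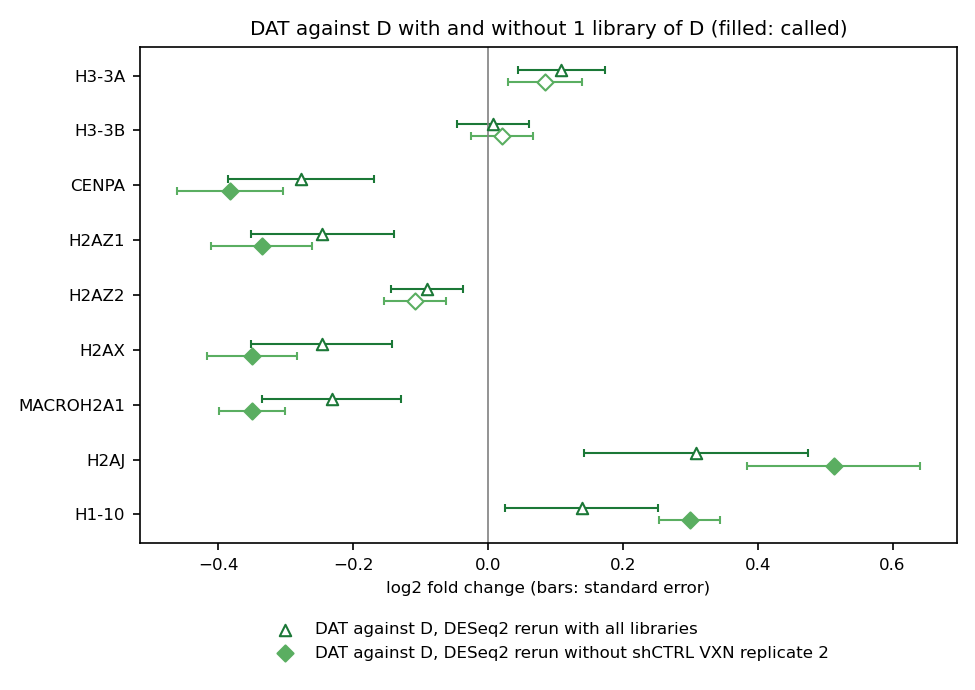
log2 fold change of each member in DAT against D (x axis) with its standard error, from unshrunken DESeq2 reruns with all libraries and without shCTRL VXN replicate 2. Filled symbols passed an adjusted p of 0.05: none with all libraries, and 6 without that library, 4 below 0 and 2 above. That library was singled out on the levels of these same members.

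Summed levels of other gene lists also differed between the shSLC6A3 DMSO pair of D and the rest. Its cycling-cell sum was 5325 and 5327 CPM against 4546 to 4634 CPM in DAT and shCTRL VXN replicate 2. The summed level of 10 markers of other cell types (leukocytes, endothelium, fibroblasts and muscle-like stroma) was 25.9 and 27.3 CPM in the pair and 41.4 to 57.5 CPM in the other 7 libraries. COL1A1 made up most of that sum, at a mean of 32.5 CPM. Of the other markers, PTPRC was at 0 in 6 of 9 libraries, CD3E in 8, COL1A2 in 7, DCN in 7, COL3A1 in 2 and PECAM1 in 1. CD68, at a mean of 4.79 CPM, ACTA2, at 4.56 CPM, and VWF, at 0.681 CPM, were at 0 in none, as was COL1A1. The part of these measures in the members' differences was not tested.

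The balance within the gene pairs of H3.3 and H2A.Z was not the same in each trio. H3-3A and H3-3B have coding sequences of 411 bases that are 78.59% identical and encode 136 residues with 0 differences. The longest identical run between them is 14 bases, and 48 annotated copies of the pair together had 0.55% as many counts as the pair. H3-3A had 0.204 to 0.215 counts per count of H3-3B in V, 0.288 to 0.331 in DAT and 0.27 to 0.295 in D. Per length, H3-3B thus supplied 69.3% to 70.4% of H3.3 mRNA in V, 59.3% to 62.7% in DAT and 62.1% to 64.2% in D. V did not overlap the other trios. The coding sequences of H2AZ1 and H2AZ2 have 387 bases, are 80.36% identical and differ at 3 of 128 residues.

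H2AZ1 had 2.04 to 2.2 counts per count of H2AZ2 in V, 2.31 to 2.7 in DAT and 2.5 to 3.02 in D. The H2AZ2 share of H2A.Z mRNA per length was 37.2% to 38.9% in V, 32.6% to 36.0% in DAT and 30.1% to 34.3% in D. V again lay apart while DAT and D overlapped. These shares depend on the lengths taken: over the union of annotated exons that of H2AZ2 was 18.1% to 19.2% in V, 15.2% to 17.4% in DAT and 13.8% to 16.3% in D, and that of H3-3B was 70.5% to 71.6%, 60.8% to 64.0% and 63.5% to 65.5%. By the labels, the log2 ratio of H2AZ1 to H2AZ2 differed by 0.20 for shSLC6A3 DMSO minus shCTRL DMSO (exact permutation test, two-sided, p = 0.3) and by 0.11 for shCTRL VXN minus shCTRL DMSO (exact p = 0.5). For H3-3A to H3-3B the differences were -0.06 (exact p = 0.7) and -0.13 (exact p = 0.5). The adjusted p over these 4 exact tests was 0.667 to 0.7, and 3 libraries against 3 cannot go below 0.1. Paired by replicate number, shCTRL VXN minus shCTRL DMSO was -0.045, -0.295 and -0.0418 for H3-3A to H3-3B (exact sign-flip test, two-sided, p = 0.25) and 0.223, -0.0117 and 0.107 for H2AZ1 to H2AZ2 (exact p = 0.5). With 3 pairs that test cannot go below 0.25.

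**Figure D5:**
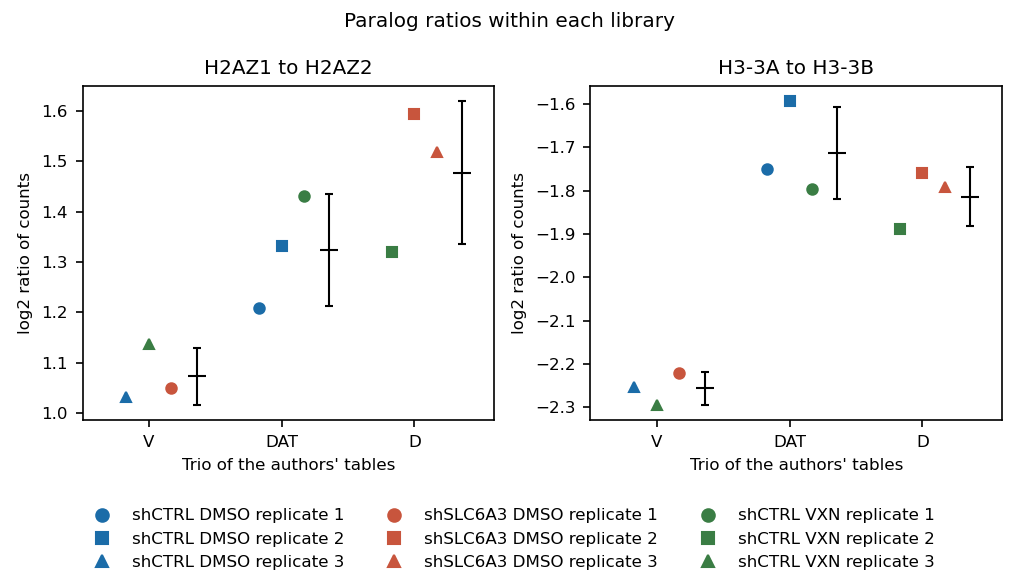
log2 ratio of counts (y axes, not starting at 0) of H2AZ1 to H2AZ2 and of H3-3A to H3-3B in each library, by trio of the authors' tables (x axis). Colour gives the labelled group, shape the replicate, and the black mark the trio mean with its SD (n = 3). V lies below the other libraries in both panels.

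The machinery that loads each variant moved unevenly in the authors' deposited table of V against D, where the median of all features was near 0, with 22.7% of features lower and 21.4% higher. For CENP-A loading and the inner kinetochore, the authors' deposited table called 20 of 21 genes lower in V and 1 higher, with a median of -1.96. HJURP, the CENP-A chaperone, stood in the authors' deposited table at -2.38 (SE 0.134, DESeq2 adjusted p = 2.48e-69). CENPM (-2.66), CENPW (-2.73) and ITGB3BP (-2.32), which encode inner kinetochore subunits, were lower too, by the authors' deposited table. The higher gene of the authors' deposited table, named after its value was seen, was CENPT at 0.55 (SE 0.0934), a kinetochore subunit that binds DNA together with CENPW.

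The H3.3 chaperones differed from this. The authors' deposited table called 2 of 7 lower, or a share near the 22.7% of all features, and 0 higher, with a median of 0.04, which was -0.01 without shCTRL VXN replicate 2. For CABIN1 and HIRA, subunits of a shared complex, the authors' deposited table listed -0.40 (SE 0.0921, DESeq2 adjusted p = 3.33e-05) and -0.25 (SE 0.089, DESeq2 adjusted p = 0.0125). Unshrunken, HIRA was also at -0.25 with all libraries. It did not pass in DESeq2 reruns that left out replicate 3 of shCTRL DMSO (-0.23), or replicate 1 (-0.23), 2 (-0.22) or 3 (-0.20) of shSLC6A3 DMSO. ATRX, at 0.15 (DESeq2 adjusted p = 0.0795), and ASF1A, at 0.21 (DESeq2 adjusted p = 0.252), missed the threshold of the authors' deposited table. ATRX passed with edgeR in V against D at 0.18 (edgeR adjusted p = 0.0241). In V against DAT, edgeR called 3 of the 7 higher and 1 lower, where 5867 of 20402 features were higher and 5857 lower. CABIN1 was the lower gene there, at -0.44 (SE 0.0876), and HIRA did not pass, at 0.03 (edgeR adjusted p = 0.699). The higher genes, named after their values were seen, were ASF1A (0.57), UBN1 (0.25) and ATRX (0.23).

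Replication-coupled and general histone chaperones were mostly lower in V. The authors' deposited table called 16 of 18 lower and 2 higher, with a median of -0.93. ASF1B, which hands new H3 and H4 to assembly factors, had the value -2.82 (SE 0.103) by the authors' deposited table. The authors' deposited table gave -2.61 (SE 0.138) for CHAF1A, a subunit of the CAF-1 assembly factor, and -2.37 (SE 0.0912) and -2.32 (SE 0.127) for TONSL and MMS22L, partners at replication forks. The higher genes of the authors' deposited table, named after their values were seen, were SUPT6H at 0.36 and SPTY2D1 at 0.29.

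Genes of H2A.Z exchange were mixed: the authors' deposited table called 9 of 22 lower and 5 higher, with a median of -0.13. The higher share lies near the 21.4% of all features. RUVBL1 (-1.09, SE 0.101) and RUVBL2 (-1.08, SE 0.0744), ATPases shared by several remodelling complexes, and ANP32E (-1.17, SE 0.0901), which removes H2A.Z, were lower by the authors' deposited table. EPC2, a subunit of the EP400 complex, was higher, at 0.92 (SE 0.0911) by the authors' deposited table. The other higher genes, named after their values were seen, were EPC1 (0.79), DMAP1 (0.62), MBTD1 (0.15) and MORF4L1 (0.13) by the authors' deposited table. Among genes that phosphorylate H2AX or read the mark, the authors' deposited table called 11 of 16 lower and 1 higher, with a median of -0.36. PRKDC (-2.04, SE 0.0989) and ATR (-0.79, SE 0.0719), which encode kinases of H2AX, and BRCA1 (-2.07, SE 0.156) and BARD1 (-2.16, SE 0.128), which are recruited to the marked chromatin, were lower by the authors' deposited table. TP53BP1, named after its value was seen, was the higher gene of the authors' deposited table at 0.23 (SE 0.0659).

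For DAT against D, the authors' deposited table called 0 genes of these lists higher and few lower: 2 of 7 H3.3 chaperones, 1 of 22 H2A.Z exchange genes, 2 of 18 CENP-A genes with an adjusted p, 1 of 16 H2AX genes and 3 of 18 general chaperones, where 5.62% of all features were lower. By the authors' deposited table they were HIRA (-0.24), UBN1 (-0.18), SRCAP (-0.21), CENPO (-0.43), CENPN (-0.31), EYA3 (-0.21), IPO4 (-0.27), SUPT6H (-0.21) and MMS22L (-0.27). edgeR called 0 of 20402 features there. SUPT6H and MMS22L did not pass in the unshrunken rerun with all libraries (DESeq2 adjusted p = 0.0561 and 0.0585). In DESeq2 reruns that left out any library but shCTRL VXN replicate 2 or 3, 0 genes of these lists were lower. Without shCTRL VXN replicate 3, only 1 was, a CENP-A gene. Without shCTRL VXN replicate 2, the counts in a DESeq2 rerun were 5 lower of 7, 6 lower and 1 higher of 22, 14 lower of 21, 8 lower and 1 higher of 16, and 14 lower of 18, where 21.1% of all features were lower and 13.8% higher. The higher genes, named after their values were seen, were MBTD1 at 0.15 and PRKDC at 0.16. Cycling-cell genes went from 0 to 14 lower of 20. As for the members, the counts without that library are descriptive only. It was singled out on these data, and D was then only the pair at 1.458 times sampling noise.

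Other histone variants gave few further values. Of 20 replacement and tissue-restricted variants listed, 17 were in the table and 3 had a mean of at least 1 CPM. MACROH2A2, the paralog of MACROH2A1, was at 28.9 to 33.8 CPM in V, 55.0 to 58.4 CPM in DAT and 54.2 to 59.5 CPM in D. Its log2 fold change in the authors' deposited table of V against D was -0.87 (SE 0.0835, DESeq2 adjusted p = 7.99e-25), next to -0.53 for MACROH2A1. H3-5, an H3.3 copy gene, was at 1.48 to 1.87 CPM and missed the threshold of the authors' deposited table (DESeq2 adjusted p = 0.762).

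The members' patterns over the 9 libraries were compared by the mean absolute difference of log2 CPM after centring each gene, over 13444 genes of at least 1 CPM. Among the members, H2AZ1 and H2AX were closest at 0.126, and H3-3B and CENPA were farthest apart at 0.849. The nearest genes to CENPA were FANCG (0.0416), TUBA1B (0.0433) and RECQL4 (0.0477). The nearest to H2AZ2 were CCT4 (0.0144) and CCT7 (0.0171), subunits of the cytosolic chaperonin, and DNAAF5 (0.0223). The nearest to MACROH2A1 was FARSA (0.0147), to H2AX CSE1L (0.0495), to H2AZ1 FH (0.054), to H1-10 PTPRU (0.0327), to H3-3A PMS2P1 (0.0321), to H3-3B GSDMD (0.0242) and to H2AJ JAZF1 (0.0543). These differences describe likeness in the same 9 libraries, which share their depth and their division into trios.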

How the data were processed

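Libraries were made with a TruSeq RNA v2 kit, per the labels' protocols. fastp 0.20.1, FastQC 0.11.9, STAR and DESeq2 1.34.0 are named in the submitters' processing notes, which give GRCh38. For the counting program and its annotation, the names were not given in the sources used here. Unnormalised counts per gene and repeat subfamily were deposited by the authors, who also gave 2 tables of shrunken log2 fold changes, p-values and base means (mean signal of normalised counts) that carry no samples. The p-values deposited by the authors were matched by DESeq2 1.42.0 reruns, whose own fold changes, with all libraries or with 1 left out, are unshrunken.

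Labelled groups and V against DAT were fitted here with edgeR 4.0.16 (R 4.3.3) over all 9 libraries after filterByExpr, with Benjamini-Hochberg adjustment over all features, and an adjusted p below 0.05 was called. The code was tested on simulated data. Members and gene lists were chosen with earlier results of these data known. Genes named are the members, the up to 4 genes per list with the smallest adjusted p at a mean of at least 1 CPM, and the 3 most like each member. RPKM used the principal transcript. Replicate numbers were taken from the titles. Deviations from group means correlated at 0.809, 0.844 and 0.943 between same-numbered shCTRL DMSO and shCTRL VXN libraries. Between shCTRL DMSO and shSLC6A3 DMSO those correlations were -0.79, 0.778 and -0.796. The V library is replicate 3 in shCTRL DMSO and shCTRL VXN and replicate 1 in shSLC6A3 DMSO. Pairing and V membership therefore cannot be told apart in these correlations. The replicate block was fitted in both labelled comparisons as an alternative. The gene pairs were tested by replicate number only for shCTRL VXN against shCTRL DMSO. The third VXN title spells VNN, and its treatment label was used. Library pairs differed by at least 1.34 times sampling noise (chi-square per degree of freedom), so none was merged. Closest were shCTRL DMSO replicate 3 with shSLC6A3 DMSO replicate 1 (1.34, in V) and shSLC6A3 DMSO replicates 2 and 3 (1.458, in D). Then came shCTRL DMSO replicates 1 and 2 (2.863, in DAT), and every other pair was at 7.353 or more. Tests between trios may thus overstate the evidence, and D without shCTRL VXN replicate 2 is only the pair at 1.458. Intervals were not computed for counts. Alternatives were other scalings, no filter, the other tool, the replicate block and leaving out each library. Some listed items are not reported here.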

Additional observations from a re-analysis of the deposited data

How the results depend on the processing

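In V against D, 7 of 9 members were lower under every scaling, tool and left-out library tried. In the labelled comparisons, with 0 members called, the range over left-out libraries crossed 0 for all 9 members with VXN and for 4, H3-3A, CENPA, H2AZ2 and H2AX, with the shSLC6A3 hairpin. It crossed 0 for 1 member in V against D, 1 in DAT against D and 0 in V against DAT. Among these ranges were -0.0801 to 0.764 for CENPA in the labelled shSLC6A3 comparison, -0.0856 to 0.45 for H2AZ1 and -0.413 to 0.205 for H2AX in the labelled VXN comparison, -0.319 to 0.0217 for H2AJ in V against D and -0.0316 to 0.0257 for H3-3B in DAT against D. In V against D, edgeR without shCTRL VXN replicate 2 gave 0.0601 for H2AJ and 0.0176 for H3-5. The causes were not tested.

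Features called in the labelled VXN comparison were 2, and 0 with no filter, 18 with DESeq2 and 0 to 0 when a library was left out. There were 0 with a replicate block in 9 libraries and 205 with that block in the 6 libraries compared. At an unadjusted p below 0.05 there were 384 of 20402. The replicate block called 0 features for the shSLC6A3 hairpin, and it changed no call on a member. In DAT against D, 689 features were called in the authors' deposited table (104 higher, 585 lower). edgeR called 0, and DESeq2 with total counts 430 (117 higher, 313 lower). Leaving out each library gave 0 to 7830, the highest without shCTRL VXN replicate 2, where edgeR called 8970. Members called in DAT against D were 0 to 6 over left-out libraries, 6 without shCTRL VXN replicate 2, as also with edgeR. The replicate block in 6 libraries, edgeR without shCTRL VXN replicate 2, exon-union lengths and the test of the gene pairs by replicate number were chosen after seeing the data. Counting error is largest for CENPA and H2AJ, the members with the fewest counts.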
